A study of Arabidopsis thaliana with 12 samples.

Results

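A set of 3 enzyme genes of fatty acid synthesis in plant organelles was followed in Arabidopsis thaliana after leaf wounding. They were chosen by name, with earlier results of these data known. The genes are AT2G04540, FATB (locus AT1G08510) and AT1G24360, each taken through the probe whose annotation lists that gene alone. Each had 1 such probe, so 3 of the 3439 probes of the table, which name 3 of the 691 genes with a probe of their own, are described. A further probe that lists FATB together with other thioesterase genes cannot be assigned to 1 gene and was not used. The 12 samples were wild-type plants of the ecotype Columbia 0, 6 of them left untreated and 6 cut in the leaves and measured 2 days later, with total RNA of each on 1 array. The labels give no plant age, no harvest day for the untreated plants and no organ for the RNA, so a difference in harvest day cannot be told apart from wounding. Nor do they tell whether the arrays stand for separate plants or for repeats of one extract, so the p-values cover the spread from array to array, which may be technical.

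Fatty acids of plant cells are built mainly in the plastid, by a dissociated set of enzymes that lengthen an acyl chain carried on acyl carrier protein (ACP). Each round joins malonyl-ACP to the chain (ketoacyl-ACP synthase), reduces the keto group (ketoacyl-ACP reductase), removes water and reduces again, until a thioesterase frees the fatty acid for export. Mitochondria run a smaller pathway of the same kind, known for supplying the octanoyl chain from which lipoic acid, a cofactor of pyruvate dehydrogenase and glycine decarboxylase, is made. AT2G04540 encodes the mitochondrial ketoacyl-ACP synthase, AT1G24360 a ketoacyl-ACP reductase, and FATB the acyl-ACP thioesterase that prefers saturated chains and so supplies palmitate for membranes and waxes.

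The deposited intensities are on a linear scale with a mean per array between 0.983 and 1.09, and the sources used here do not give their background correction or scaling. Wounded replicate 4 stood apart, with a correlation over probes between 0.437 and 0.514 with the other arrays, so the differences, ratios and correlations of the 3 genes are given with and without it. The other 11 arrays held 5 alike pairs (untreated 1 and 2, 3 and 4, 5 and 6; wounded 2 and 3, 5 and 6) at r between 0.952 and 0.984, against 0.871 to 0.944 for their other pairs. Whether the alike arrays share an extract was not tested. Of 19 marker genes of leaf, root, epidermis, phloem and guard cells, 6 had a single-gene probe, all of leaf photosynthesis. None of these 6 was listed at 0 on any array, and their summed intensity spanned 24.6 to 40.8 in untreated and 23.6 to 52.4 in wounded plants, with PSBW as the largest part on each array. The wounded arrays were split in some of these markers. LHB1B2 stood at 0.917 and 0.944 in replicates 5 and 6 against 8.05 to 10.6 in the other wounded arrays. PSAN stood at 0.470 and 0.491 against 1.90 to 3.42, and SBPASE at 0.378 and 0.386 against 0.453 to 0.624. In PSBY, PRK and PSBW, replicates 5 and 6 lay within the range of the other wounded arrays. Untreated replicates 1 and 2 stood lower in some markers too, with LHB1B2 at 4.55 and 4.57 against 6.84 to 8.58 in the other untreated arrays. PSAN in untreated 1 and 2 was 0.722 and 0.769 against 1.33 to 1.86, and PSBY and PSBW were also lower there. SBPASE lay within the range of the other untreated arrays, and PRK was higher, at 1.45 and 1.43 against 0.987 to 1.30. The part of these splits in the results on the 3 genes was not tested. By limma, 0 of the 6 passed an adjusted p of 0.05 over 12 or 11 arrays. Of all probes tested, 0 of 3233 passed over 12 arrays and 71 of 3203 over 11. The 0 of 6 therefore does not show that the markers were unchanged.

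In AT2G04540, the condensing enzyme of the mitochondrial pathway, the deposited intensity was lower in every wounded than in every untreated array, which was so for 4.36% of all 3233 probes tested. The 6 untreated arrays had a lowest intensity of 3.59, a median of 4.005 and a highest of 4.66. The 6 wounded arrays had a lowest of 0.810, in replicate 4, a median of 2.48 and a highest of 2.94. The groups therefore did not overlap, and without replicate 4 the lowest wounded intensity was 2.11. Wounded replicates 5 and 6, at 2.65 and 2.55, lay with the other wounded arrays for this gene, whereas over all probes they correlated more closely with untreated 1 and 2 (r between 0.930 and 0.943) than with wounded 1 to 3 (r between 0.871 and 0.893).

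For testing, intensities were put on the log2 scale and the arrays brought to a common distribution (quantile normalization), and all differences below are wounded minus untreated on that scale unless another is named. The mean log2 level of AT2G04540 was 1.98 ± 0.16 (SD, n = 6) in untreated plants and 1.32 ± 0.11 (SD, n = 5) in wounded plants without replicate 4. Over these 11 arrays AT2G04540 fell to 0.634-fold, a log2 difference of -0.66 ± 0.11 (SE; 95% interval -0.89 to -0.42; limma adjusted p = 0.0253). All 5 wounded arrays lay below all 6 untreated ones. Its p-value ranked 7 among the 3203 probes tested, and 4.34% of those probes had a difference as low or lower. Over all 12 arrays the difference was -0.86 ± 0.22 (SE, n = 6 and 6) and did not pass, at a limma adjusted p of 0.216. The call over 11 arrays did not hold when each alike pair was fitted as a random block, where the difference was -0.64 ± 0.14 and the limma adjusted p was 0.390. It also depended on the scaling, since median centring of each array gave -0.35 ± 0.11 (adjusted p = 0.106) and the values as deposited -0.69 ± 0.13 (adjusted p = 0.0236), while the median of all probes shifted by -0.31 in the latter. Over 12 arrays the values as deposited gave -0.96 ± 0.28 (adjusted p = 0.181), which did not pass. Leaving out untreated replicate 1, 2, 3 or 4 or wounded replicate 2 or 3 as well put the adjusted p between 0.0517 and 0.0663.

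**Figure D1:**
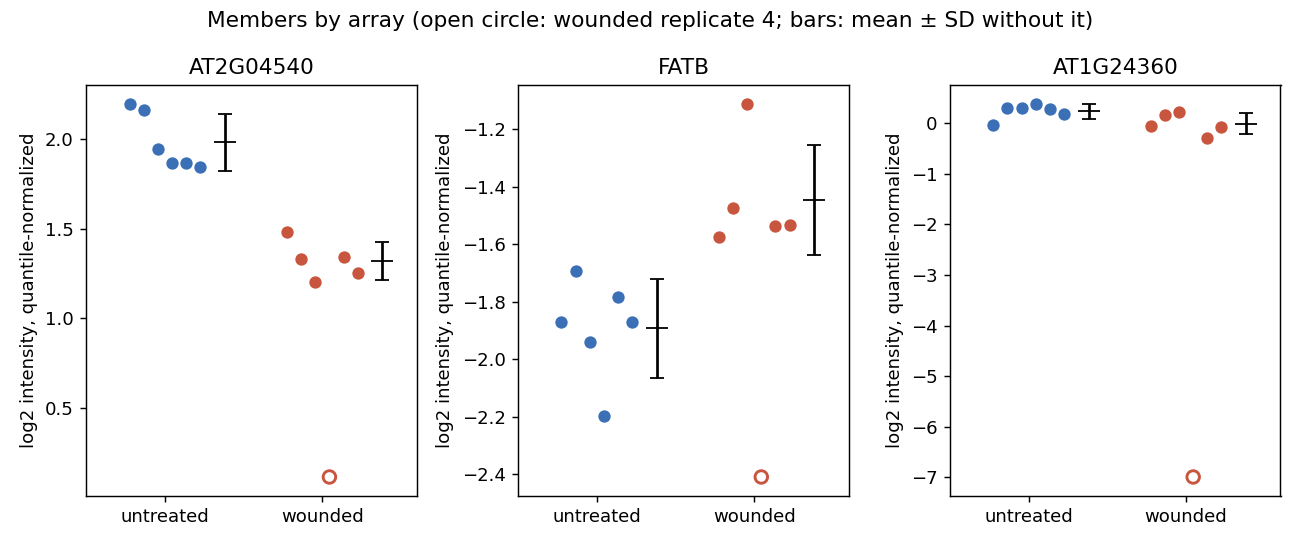
Quantile-normalized log2 intensity of AT2G04540, FATB and AT1G24360 on each array (points, in order of replicate number within the group), with mean ± SD of each group without wounded replicate 4 as bars and that array as an open circle. Wounded arrays lie below all untreated ones for AT2G04540, 5 of 6 lie above them for FATB, and replicate 4 is the lowest wounded array in each panel, at -6.99 for AT1G24360; the vertical scales differ between panels.

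For AT1G24360, the reductase of the elongation cycle, the untreated arrays had a lowest deposited intensity of 1.19, a median of 1.28 and a highest of 1.504. The wounded arrays ran from 0.00905 in replicate 4, through a median of 0.915, to 1.03 in replicate 6. As deposited, the groups did not overlap here either, and without replicate 4 the lowest wounded intensity was 0.889. On that scale every wounded array was lower for 4.36% of probes over 12 arrays and for 6.68% over 11. After quantile normalization the groups overlapped, with untreated levels between -0.03 and 0.38 and wounded levels other than replicate 4 between -0.29 and 0.23. Its difference was -0.25 ± 0.12 (SE, n = 5 and 6; 95% interval -0.51 to 0.02; limma adjusted p = 0.280) without replicate 4. With it the value became -1.41 ± 1.04 (SE, n = 6 and 6; adjusted p = 0.560), so that 1 array decided its size. With the values as deposited and without replicate 4 it was -0.47 ± 0.11 and passed, at a limma adjusted p of 0.0476, where the median of all probes was itself at -0.31. In that setting 87 of 3203 probes passed, 81 of them lower and 6 higher.

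FATB, which ends chain growth in the plastid, was dim, with intensities below the array's own median on all arrays except wounded replicate 3. Its deposited intensities had a lowest value of 0.203, a median of 0.307 and a highest of 0.403 in untreated plants. In wounded plants they were 0.195, 0.324 and 0.369 in the same order, so the groups overlapped as deposited. After quantile normalization the untreated levels ran from -2.20 to -1.69, and those of the 5 wounded arrays other than replicate 4 from -1.57 to -1.11, with no overlap. Wounded replicate 4, at -2.41, lay below all untreated arrays. Its difference was 0.45 ± 0.12 (SE, n = 5 and 6; 95% interval 0.18 to 0.72; limma adjusted p = 0.0774) without replicate 4 and 0.29 ± 0.20 (SE, n = 6 and 6; adjusted p = 0.550) with it, and neither passed. As deposited the values were 0.14 ± 0.18 over 11 and 0.01 ± 0.22 over 12 arrays (adjusted p = 0.606 and 0.973), where all probes had a median of -0.31 and -0.32.

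Set against all probes, 0 of the 3 genes passed the threshold over 12 arrays and 1 over 11, where 40 of 3203 probes, 1.25%, were called lower and 31, 0.968%, higher. Over 12 arrays limma called 0 of 3233 probes, with 376 at an unadjusted p under 0.05. The median difference of all probes was -0.02 over 11 and over 12 arrays. Against this AT2G04540 was at -0.66 and -0.86, AT1G24360 at -0.25 and -1.41, and FATB at 0.45 and 0.29. The quartiles of all probes were -0.24 and 0.20 over the 11 arrays. FATB was above the upper one, with 9.34% of probes as high or higher, while 24.3% of probes were as low as AT1G24360 or lower. Groups without overlap over the 11 arrays were found in 3.15% of probes with the wounded arrays lower, as for AT2G04540, and in 2.65% with them higher, as for FATB. Over all 12 arrays 2.17% of probes had every wounded array lower, AT2G04540 among them.

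**Figure D2:**
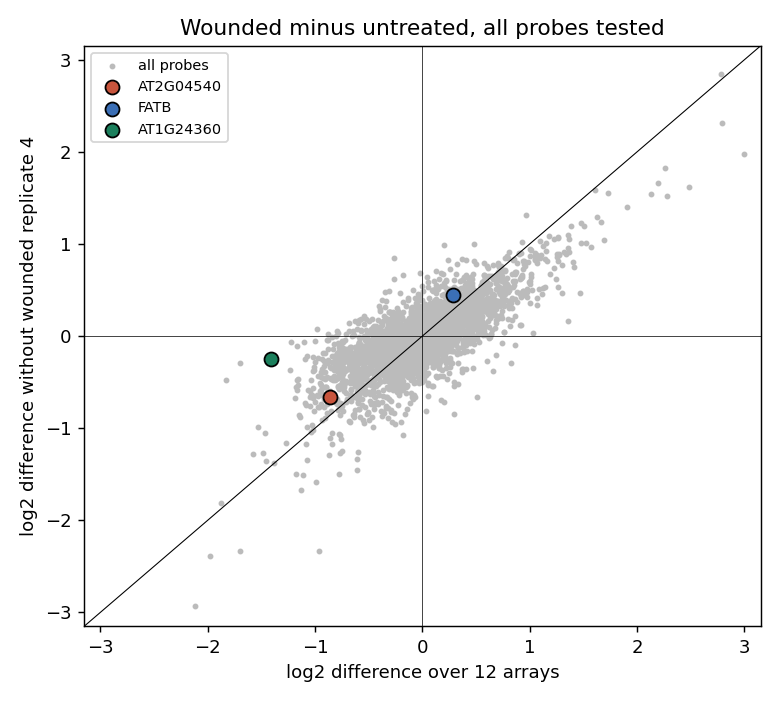
Log2 difference, wounded minus untreated, of each probe over 12 arrays (horizontal axis) and without wounded replicate 4 (vertical axis), with the line of equal values. AT1G24360 lies far from that line, at -1.41 against -0.25, while AT2G04540 moves from -0.86 to -0.66 and FATB from 0.29 to 0.45.

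Whether the genes changed unequally was examined by the log2 ratio of each pair within an array, of which only the change between groups is read. Of the 3 pairs, the ratio of AT2G04540 to FATB changed by -1.15 and was lower in 6 of 6 wounded arrays than in any untreated one, replicate 4 included. It lay between 3.65 and 4.07 in untreated arrays and between 2.31 and 3.06 in wounded arrays. The exact permutation test over the 924 splits of the arrays gave a two-sided p of 0.00216, the smallest it can give (0.00325 adjusted over the 3 pairs), and without replicate 4 the change was -1.10 with the same p. With the values as deposited it was -0.98, again with an exact permutation p of 0.00216. Averaging the alike arrays left 3 untreated and 4 wounded values, and the change of -1.13 then had an exact permutation p of 0.0286, the smallest possible there, which is 0.0857 adjusted over the pairs. AT2G04540 and FATB thus changed unequally between the groups when arrays were counted singly, though the genes were chosen with earlier results of these data known. Of the 3033 probes other than FATB with values on all arrays, 9.13%, AT2G04540 among them, had a ratio to FATB that was lower in every wounded than in every untreated array. Of as many probes other than AT2G04540, 30.3%, FATB among them, had a ratio to AT2G04540 that was higher in every wounded array. Without replicate 4 these shares were 18.1% and 38.6%.

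The ratio of FATB to AT1G24360 was higher in every wounded array too. It lay between -2.58 and -1.84 in untreated arrays, between -1.64 and -1.24 in wounded arrays without replicate 4, and at 4.58 in replicate 4. The change was 1.70 over 12 arrays and 0.69 without replicate 4, with an exact permutation p of 0.00216 (0.00325 adjusted over the 3 pairs) for both. Averaging the alike arrays gave 2.19 with an exact permutation p of 0.229. A ratio to AT1G24360 that was higher in every wounded array was found for 8.31% of the probes other than AT1G24360 over 12 arrays, FATB among them. The share was also 8.31% without replicate 4. With AT1G24360 at an intensity of 0.00905 in replicate 4, a ratio to it was all but bound to be high there. The equal shares are therefore no separate evidence from that array.

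The ratio of AT2G04540 to AT1G24360 turned its direction with replicate 4. Its change was 0.55 over 12 arrays (exact permutation p = 0.987), with replicate 4 at 7.11 and the untreated arrays between 1.48 and 2.23. Without replicate 4 it was -0.41 (exact permutation p = 0.0303, also 0.0303 adjusted over the 3 pairs), and the wounded arrays, between 0.97 and 1.63, overlapped the untreated ones.

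**Figure D3:**
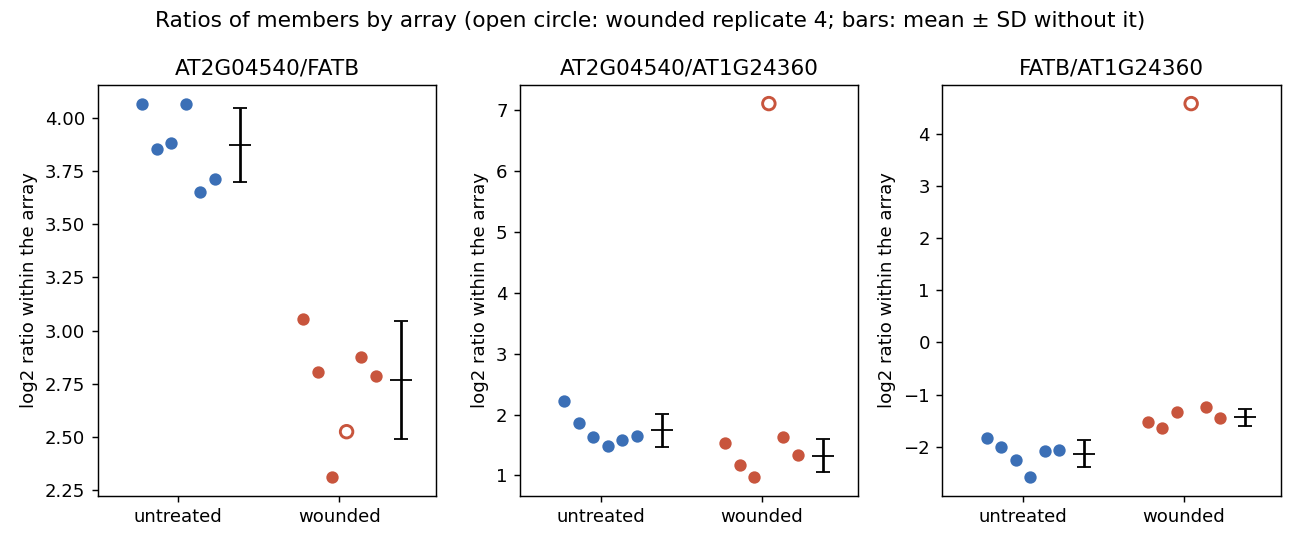
Log2 ratio of each pair of genes within an array, by group (points, in order of replicate number), with mean ± SD without wounded replicate 4 as bars and that array as an open circle. For AT2G04540/FATB replicate 4, between the other wounded arrays, lies below all untreated ones; in both ratios to AT1G24360 it is far above the rest, at 7.11 and 4.58.

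The rest of the pathway was sparsely covered. Of 74 genes listed for plastid and mitochondrial fatty acid synthesis, thioesterases and desaturases, lipoate, jasmonate, suberin and cutin synthesis, 5 had a single-gene probe, the 3 above and 2 others. AT3G45770, an enoyl reductase of the mitochondrial pathway, was dim, with deposited intensities between 0.0595 and 0.178 in untreated and between 0.0255 and 0.112 in wounded plants, and the groups overlapped. Its difference was -0.29 ± 0.31 (SE, n = 5 and 6; limma adjusted p = 0.634) without replicate 4 and -0.37 ± 0.31 (SE, n = 6 and 6; adjusted p = 0.594) with it. AT5G16230, of the acyl-ACP desaturase family, was listed at 0 on all 12 arrays and could not be tested. A further 10 probes list a pathway gene together with other genes and were not assigned.

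The genes with the most similar pattern were taken as the 3 single-gene probes of highest Pearson r over the 11 arrays without replicate 4, among 599 with values on all arrays. These values are a description, since all the arrays share the group difference and the alike pairs. For AT2G04540 they were the AP2/ERF family gene AT4G31060 (r = 0.972), AT4G05070 (r = 0.954) and the RNA-binding protein gene UBA1A (r = 0.942). Over all 12 arrays these became 0.989, 0.976 and 0.419. For FATB they were AT5G66530 (r = 0.937), the plastid chaperonin gene Cpn60beta4 (r = 0.887) and the pentatricopeptide repeat gene AT2G17670 (r = 0.838), which became 0.956, 0.733 and -0.01 over 12 arrays. For AT1G24360 they were AT2G43180 (r = 0.844), AT4G21820 (r = 0.814) and the light-harvesting protein gene LHB1B2 (r = 0.749), which became -0.41, 0.981 and -0.15. With the values as deposited, over the 11 arrays, r fell to 0.265 for LHB1B2 and to 0.549 for AT2G17670, and lay between 0.867 and 0.959 for the other 7. Between the 3 genes themselves, r over the 11 arrays was -0.749 for AT2G04540 and FATB, 0.441 for AT2G04540 and AT1G24360, and -0.368 for FATB and AT1G24360. Over all 12 arrays these became 0.108, 0.812 and 0.570, so wounded replicate 4 turned the sign of both correlations with FATB. With the values as deposited, over the 11 arrays, they were -0.107, 0.863 and -0.166, so their size depended on the scaling as well.

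**Figure D4:**
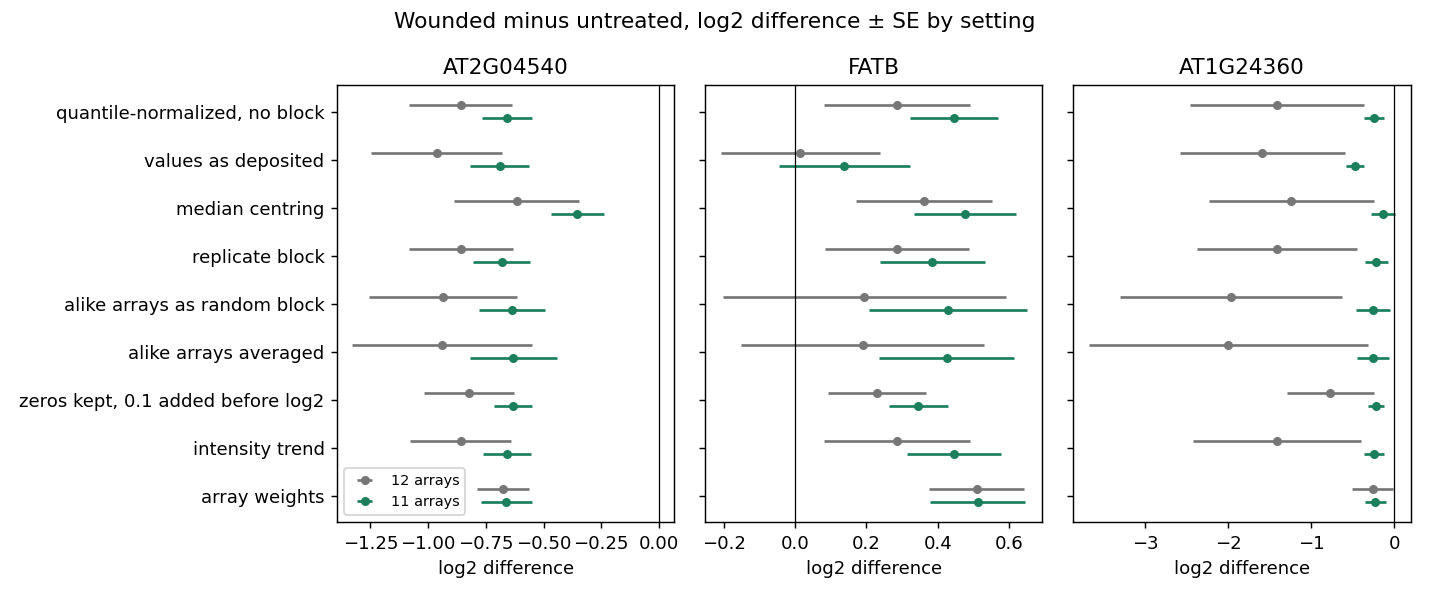
Log2 difference ± SE, wounded minus untreated, of the 3 genes (panels) under 9 settings (rows) over 12 arrays (grey) and without wounded replicate 4 (green); the horizontal scales differ between panels. AT2G04540 and AT1G24360 lie below 0 and FATB above 0 in each row, with FATB nearest to 0, at 0.01, for the values as deposited over 12 arrays.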

How the data were processed

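The authors deposited intensity values on a linear scale for 3439 probes on 12 arrays; array type, background correction and scaling: not given in the sources used here. Groups and replicate numbers came from the sample titles. Gene names came from the platform annotation, updated by gene identifier with RefSeq's TAIR10.1 gene table, which held 690 of the 692 single-gene probes. Coordinates are left out because the table states no build. The members and lists were chosen with earlier results of these data known.

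Values of exactly 0 were treated as missing (none for the 3 genes), the others put on the log2 scale and quantile-normalized, because array medians spread over 0.825. Probes with at least 4 values per group were tested with lmFit and eBayes (limma 3.58.1, R 4.3.3), two-sided, without a block, adjusted by Benjamini-Hochberg over all probes, with a threshold of 0.05; the fit without wounded replicate 4 kept this scaling. The fit was tested on simulated data with independent arrays. That test held no alike pairs and no array that stood apart, so it does not cover those features of the real arrays. Ratios were compared by exact permutation over arrays (Python 3.11.15). Genes named were the 3, all pathway-list genes with a single-gene probe, and the 3 closest patterns of each. The number of arrays limits the precision. Alternatives covered scaling, blocks, filters, an offset of 0.1, the variance model, the threshold and arrays left out.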

Additional observations from a re-analysis of the deposited data

Results flagged for a closer look

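Of the 14 sets of values examined, each being 1 group of arrays for 1 gene or ratio, 5 held an array far from the rest. Chance gives about 1 in 20. All 5 were wounded sets, and no untreated set held such an array. Wounded replicate 4, which only the wounded sets include, was the far array in each of the 5. Its gap to the nearest array, as a share of the group's range, was 0.794 for AT2G04540, 0.643 for FATB and 0.928 for AT1G24360, each time at the lowest value. It was 0.892 for the ratio of AT2G04540 to AT1G24360 and 0.936 for that of FATB to AT1G24360, each time at the highest value. Both ratios contain AT1G24360, so these are not independent of its own value. For the ratio of AT2G04540 to FATB and for AT3G45770 no array of either group lay so far out.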

How the results depend on the processing

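Of 217 recomputed differences and ratio changes, 198 kept their direction and their side of the threshold, and 2 reversed. Of 46 recomputed counts of probes called, 26 stayed within 1.5 times the count reported. Most of these were for the count of 0 over 12 arrays, where staying means 0 again. For the count of 71 over 11 arrays, 1 stayed, 9 were lower and 1 was higher with a further array left out. Under the other settings 6 stayed, 3 were lower and 3 were higher. The direction of the 3 genes held in every alternative run, over 12 and 11 arrays. Over 12 arrays AT2G04540 lay between -0.93 and -0.66, FATB between 0.19 and 0.45 and AT1G24360 between -1.69 and -0.25 with 1 array left out, and the probes called numbered 0 to 71. Array weights gave 179 probes, with AT2G04540 at -0.68 (limma adjusted p = 0.0135) and FATB at 0.51 (0.0433); 7 probes passed as deposited and 1 with 0.1 added. Over 11 arrays, leaving out a further array gave 2 (untreated 4) to 125 (wounded 1) of 71 probes and put AT2G04540 between -0.70 and -0.62, FATB between 0.36 and 0.49 and AT1G24360 between -0.30 and -0.17. AT2G04540 no longer passed with median centring (-0.35), the alike arrays as random block (-0.64, 0 probes called) or averaged (-0.63, 0 probes), nor with the replicate number as a block (-0.68, 0 probes). AT1G24360 passed as deposited (-0.47), and FATB passed with 0.1 added (0.35, limma adjusted p = 0.0482; 137 probes called). Array weights called 119 probes and a threshold of 0.10 called 211. The split of the calls was 31 higher and 40 lower, 48 and 24 with median centring, and 6 and 81 as deposited. Averaging the alike arrays ended the calls on the ratio of AT2G04540 to FATB (-1.13) and of FATB to AT1G24360 (2.19), where no adjusted exact permutation p could fall under 0.0286. With 1 array left out the ratio changes lay between -1.21 and -1.06, 0.69 and 1.94, and -0.41 and 0.81, the last, AT2G04540 to AT1G24360, reversing to -0.41 without wounded replicate 4. AT3G45770 lay between -0.39 and 0.039 over 11 arrays with a further array left out, reversing to 0.039 without wounded replicate 1. The causes were not tested. The replicate numbers did not pair the arrays: deviations of same-numbered arrays correlated at -0.349 to 0.093, 0 of 6 pairs over 0.1. As a replicate block over 12 arrays, the number left 0 probes called, and the 3 ratio changes kept their side of the threshold. No signal over background was used, as the table holds intensities alone.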
